A study of Mus musculus with 24 samples.

Results

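ERV1 is the family of endogenous retroviruses related to the gammaretroviruses, and 114 of its elements, out of 1445 repeat elements of all kinds, are described here across 8 conditions of mouse embryonic fibroblasts (MEFs). The members were chosen by name. Every repeat element whose family is given as exactly ERV1 was taken, which gives 118, and the 4 internal elements MuLV-int, MMVL30-int, RLTR6-int and MMERGLN-int were left out. The rule uses names and no measured value, but it was set with earlier results of these data known. Of the 114 members, 21 are internal elements, whose names end in -int, and 93 are long terminal repeats (LTRs). By name, 60 are mouse or rodent elements such as those called RLTR, LTRIS, MuRRS or MURVY. The other 54 have MER names or numbered LTR names, which are also used for repeats of other mammals.

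A retroviral insertion, or provirus, is transcribed from its upstream LTR through the internal part that encodes the viral proteins, and ends in its downstream LTR. Most old insertions have lost the internal part by recombination between the LTRs, and a solitary LTR remains, so reads on an LTR name can come from proviruses or from solitary copies. In embryonic cells, proviruses of the murine leukaemia virus kind are known to be silenced by ZFP809, a zinc finger protein that binds the primer binding site. Such zinc finger proteins bring in TRIM28 and the histone methyltransferase ESET1 (SETDB1), which sets H3K9me3. SUV39H1 and SUV39H2 also set H3K9me3, chiefly in pericentric heterochromatin, and G9a with its partner GLP sets H3K9me2.

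The study deleted up to 6 H3K9 methyltransferase genes in MEFs and sequenced total RNA of 24 cultures, 3 biological replicates in each of 8 conditions. All lines, the WT included, carry a conditional *Eset1* allele and a Cre recombinase that 4-hydroxytamoxifen (4-OHT) activates. WT is this parent line without 4-OHT, and *E1* is the same line after 4-OHT, which removes floxed exons of *Eset1*. The further genes were mutated with CRISPR-Cas9, and every mutant line is 1 clone. By the paper's methods, a construct with inducible Cre and puromycin resistance was introduced again after the CRISPR step. The lines were then kept under puromycin selection. *E1 S1S2* lacks *Eset1*, *Suv39h1* and *Suv39h2*, and *6KO1* comes from the same clone by further mutation of *Eset2*, *G9a* and *Glp*. *E2* is an *Eset2* mutant clone without 4-OHT and *E1E2* is that clone after 4-OHT. *E1E2 G9Gl* lacks *Eset1*, *Eset2*, *G9a* and *Glp*, and *6KO2* comes from the same clone by further mutation of *Suv39h1* and *Suv39h2*. All these mutations were made before 4-OHT, so *Eset1* was deleted last in each line. Between lines, a condition is therefore also a clone with its own passage history. The effect of the genes cannot be told apart from that of the clone, the added Cre construct or the selection. WT and *E1* are the same line, and *E2* and *E1E2* are the same clone. Within these pairs, deletion of *Eset1* cannot be told apart from exposure to 4-OHT and activation of Cre. By the titles, all mutant conditions other than *E2* had 4-OHT and WT did not. The treatment field of the labels names 4-OHT for all samples, and the titles, which mark WT and *E2* as controls, were followed.

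Counts per library ranged from 24737307 to 37419816. The RNA of *Setdb1* (*Eset1*) in *E1*, *E1 S1S2* and *6KO1* was 0.668 to 0.675 times the WT mean. It was 0.438 times WT in *E1E2 G9Gl* and 0.517 times WT in *6KO2*. In *E2* it was 0.807 times WT and in *E1E2* 0.809 times WT. The libraries of *E2* and *E1E2* are therefore called by their labels, since this RNA does not separate them. *Setdb2* (*Eset2*) was at 0.390 times WT in *E2*, and *Ehmt2* (*G9a*) at 0.399 times WT in *6KO1*, 0.311 times WT in *E1E2 G9Gl* and 0.676 times WT in *6KO2*, which is above its parent clone *E1E2 G9Gl*. *Suv39h2* was at 1.70 times WT in *E1 S1S2*. A frameshift mutation need not lower the RNA of its gene. WT replicate 2 stood apart from the other WT libraries, with a chi-square per gene of 62.8 against replicate 1 and 52.5 against replicate 3, where replicates 1 and 3 gave 4.72. Its summed member count was also the lowest of WT. The effect of leaving it out is given with the alternatives.

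Values are normalized counts, the counts of an element scaled by the effective gene total of its library to a mean of 25325100. Levels are compared between libraries and not between elements, since the lengths of the elements are not known here. All 24 libraries entered 1 model, edgeR's quasi-likelihood test was run for the 1207 repeat elements with sufficient counts, and p-values were adjusted over them after Benjamini and Hochberg. An element is called up or down where its log2 difference reaches 1 in size and its adjusted p does not exceed 0.01. Of the 114 members, 101 were tested, 18 of them internal and 83 LTR. LTR75_1, MER101B and MER83A-int had no count, and 10 others had between 9 and 126 counts in all libraries together and were not tested, with LTR78B at the top and MER110 at the bottom of this range. In bulk RNA, more cells that transcribe an element and more RNA per cell cannot be told apart.

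The members made up a small part of the RNA, and that part was larger in every mutant condition. They held 0.0556 to 0.0840% of the counts of WT libraries and up to 0.600% in *E1*. Of the repeat counts alone, they held 0.446 to 0.615% in WT and 3.28 to 3.85% in *E1*, the highest of the conditions. The share of repeat counts was 2.57 to 2.65% in *E1E2 G9Gl*, 2.75 to 2.87% in *6KO2*, 2.05 to 2.14% in *6KO1* and 2.04 to 2.08% in *E1 S1S2*. It was 1.61 to 1.99% in *E2* and 1.48 to 1.62% in *E1E2*. No mutant library reached down into the WT range.

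How many members rose differed widely between the conditions. In *E1*, 14 of 101 tested members were called up, against 4.64% of all 1207 repeat elements up and 0.249% down. In *E1 S1S2* 17 members were called up, with 6.46% of all elements up and 0.746% down. In *6KO1* 58 members were called up, where 32.6% of all elements were up and 2.65% down. In the libraries labelled *E2*, 14 members were called up (all elements 4.97% up, 2.32% down), and in those labelled *E1E2* 17 were called up and 2 down (all elements 5.55% up, 1.57% down). In *E1E2 G9Gl* 62 members were called up (all elements 41.3% up, 2.07% down), the most of the conditions, and in *6KO2* 44 were called up (all elements 22.5% up, 2.15% down). As a share of the 101 tested members, the rises were 13.9%, 16.8%, 57.4%, 13.9%, 16.8%, 61.4% and 43.6% for the conditions as just listed. These 7 comparisons share the WT libraries and are not independent of each other.

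Falls were rare among the members, and among all elements only 0.249 to 2.65% were called down against WT. Both tools used, edgeR and DESeq2, called 0 members down against WT in each condition other than *E1E2*. At an unadjusted edgeR p under 0.05, 1 member was lower and 36 were higher in *E1*, 3 and 48 in *E1 S1S2*, 3 and 87 in *6KO1*, and 3 and 40 in *E2*. At that p no member was lower in *E1E2 G9Gl* (0 lower, 80 higher) or *6KO2* (0 lower, 64 higher). The counts of all elements at that p are not given here. Their median log2 difference was above 0, at 0.77 in *E1E2 G9Gl* and 0.28 in *6KO2*. More rises than falls need therefore not be particular to the members. In *E1E2*, edgeR called MER34-int and MER52-int down and DESeq2 called 1 member down. The called rises were nearly all complete: all libraries of the condition lay above all WT libraries, with the exception of MER89 in *E2* (13 of 14 rises), MER34B-int in *E1E2* (16 of 17) and MER57E1 in *E1E2 G9Gl* (61 of 62). MER89 and MER57E1 are named after their values were seen, for this reason alone. The calls were made on the same libraries, so this lack of overlap describes the called members and gives no further support.

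**Figure D1:**
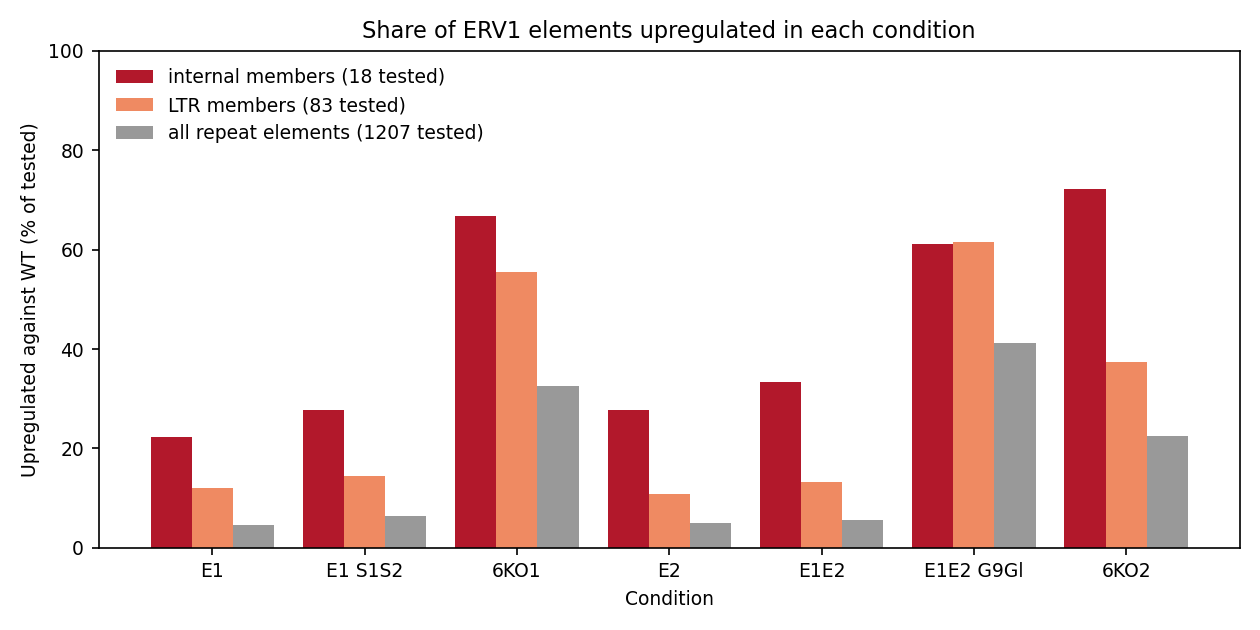
Percentage of tested elements called up against WT (vertical axis) in each of the 7 mutant conditions, as bars from 0, for the 18 internal members, the 83 LTR members and all 1207 repeat elements. In every condition both groups of members reach a higher percentage than all elements, and *6KO1* and *E1E2 G9Gl* stand above the other conditions for all elements.

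The middle of the members moved less than the called members. The median log2 difference from WT over the 101 members was 0.24 for *E1*, 0.44 for *E1 S1S2*, 1.14 for *6KO1*, 0.29 for *E2* and 0.46 for *E1E2*, and *E1E2 G9Gl* and *6KO2* had 1.51 and 0.76. Over all 1207 elements it was 0.10, 0.20, 0.56, 0.12, 0.14, 0.77 and 0.28 in the same order. With the members that had no count in WT set to their lower bound, the medians were 0.20, 0.44, 1.14, 0.29, 0.38, 1.48 and 0.74. Scaling by the repeats in place of the genes moved the median of all elements in *6KO1* to -0.06 and that of the members to 0.52, and in *E1E2 G9Gl* to -0.07 and 0.66. Under that scaling 38 members were called up and 3 down in *6KO1*, and 40 up and 1 down in *E1E2 G9Gl*. Of all 1207 elements, 231 were then up and 97 down in *6KO1*, and 271 up and 125 down in *E1E2 G9Gl*.

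Internal elements and LTRs differed in these medians. The 18 internal members had a median of 2.27 in *E1E2 G9Gl*, 1.75 for *6KO1* and 2.15 for *6KO2*, where the 83 LTR members had 1.48, 1.10 and 0.63. In *E1* the medians were 0.22 and 0.25, and in *E1E2* 0.69 and 0.35. The rises were those of 4 internal and 10 LTR members in *E1*, of 5 and 12 in *E1 S1S2* and of 12 and 46 in *6KO1*. They were those of 5 and 9 in *E2*, of 6 and 11 in *E1E2*, of 11 and 51 in *E1E2 G9Gl* and of 13 and 31 in *6KO2*. The difference between the internal and the LTR members was not tested.

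The split by name was wide. In *E1*, all 14 rises were of mouse or rodent names, of which 58 were tested, and in *E1 S1S2* 15 of the 17 were. The mouse and rodent names gave 44 rises in *E1E2 G9Gl*, the most, then 41 for *6KO1*, 32 for *6KO2*, 16 for *E1E2* and 13 for *E2*. Of the 43 tested members with MER or numbered LTR names, 18 rose in *E1E2 G9Gl*, *6KO1* had 17 rises and *6KO2* had 12. *E1 S1S2*, *E2* and *E1E2* had 2, 1 and 1 such rises. Counted over all 1207 elements, *6KO2* had 22.5% up, *6KO1* had 32.6% and *E1E2 G9Gl* had 41.3%. Rises were therefore common among all repeats in these lines, and whether the MER and numbered LTR names differ from them was not tested. Among the other LTR families, ERVK, which holds the IAP and ETn elements, had 62.6% of 270 tested elements up in *6KO1*, 46.7% in *6KO2* and 71.9% in *E1E2 G9Gl*. ERVL had 27.2%, 10.9% and 41.3% of 92 up in the same conditions. These shares of families were not tested against each other.

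The members differed in how often they were called. Of the 101 members, 72 were called up in at least 1 condition and 29 in none, and 26 stayed within 1 on the log2 scale in all 7. The matching counts over all elements are not given here. Of all 1207 elements, 41.3% were up in *E1E2 G9Gl* and 32.6% in *6KO1*, so calls in at least 1 condition were common among all repeats too. The members called up throughout were the internal elements RLTR4_MM-int, RLTR1B-int, MuRRS4-int and MERV1_I-int and the LTRs RLTR4_Mm, RLTR5_Mm, RLTR6_Mm, RLTR6B_Mm, RLTR6C_Mm, MMERGLN_LTR and MERV1_LTR. All 11 have mouse or rodent names. This grouping is a description, because the comparisons share the WT libraries, and the values in each condition are given member by member in what follows. In *E1* the called members beside these 11 were LTRIS4B, RLTR1E_MM and RLTR41, the last named to complete the list.

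RLTR4_MM-int, the internal part named with the LTR RLTR4 of murine leukaemia viruses, was the most abundant internal member in counts. Its normalized counts were 6219, 4002 and 5672 in WT and 107930, 105032 and 95959 in *E1*. The *6KO2* libraries had 78452, 76243 and 76013, and those of *E1E2 G9Gl* 54168, 49143 and 52023. In *6KO1* it had 48328, 42018 and 43957, in *E1 S1S2* 34898, 34199.7 and 36909, in *E2* 30479, 32673 and 30327, and in *E1E2* 20488, 19739.7 and 19596. The order was therefore *E1*, *6KO2*, *E1E2 G9Gl*, *6KO1*, *E1 S1S2*, *E2*, *E1E2*, WT, and no libraries of neighbouring conditions overlapped. The level in *E1*, the parent line after 4-OHT, was the highest. The log2 difference from WT was 4.28 ± 0.13 (SE, edgeR adjusted p 2.49e-31) in *E1* and 1.91 ± 0.11 (edgeR adjusted p 5e-19) in *E1E2*, the largest and the smallest of the 7.

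Its LTR followed the same order. RLTR4_Mm had 2481, 1981 and 2347 normalized counts in WT, 39665, 38899.9 and 35823 in *E1*, and 30953, 28929.5 and 30909 in *6KO2*. The other 5 mutant conditions lay between 7310.2 and 15011, with *E1 S1S2* and *E2* overlapping. The log2 difference was 4.07 ± 0.12 in *E1* (edgeR adjusted p 6.27e-32), 3.74 ± 0.11 in *6KO2* (edgeR adjusted p 2.95e-31) and 1.71 ± 0.10 in *E1E2* (edgeR adjusted p 1.09e-18). Over the 24 libraries the log2 levels of RLTR4_Mm and RLTR4_MM-int had a Pearson correlation of 0.983, and RLTR4_MM-int and the left-out MuLV-int one of 0.991. These correlations describe libraries that share conditions and scaling, and reads may be shared out between related names, so they carry no p.

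RLTR4_MM-int decides any sum over the internal members. The summed internal count was 7809 ± 1605 (SD, n = 3) in WT, and *E1* had 13.8 times this, *6KO2* 11.7 times, *E1E2 G9Gl* 10.3 times, *6KO1* 8.71 times, *E1 S1S2* 5.30 times, *E2* 4.67 times and *E1E2* 3.40 times. RLTR4_MM-int held 64.5 to 95.3% of it. Without RLTR4_MM-int the ratios in that order were 2.003, 5.85, 11.3, 9.25, 2.42, 2.12 and 2.62, so *E1* went from the highest ratio to the lowest. The summed LTR count was 14171 ± 2109 (SD, n = 3) in WT and, again in that order, 4.76, 5.10, 6.70, 4.66, 3.83, 3.47 and 3.24 times this in the mutants.

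**Figure D2:**
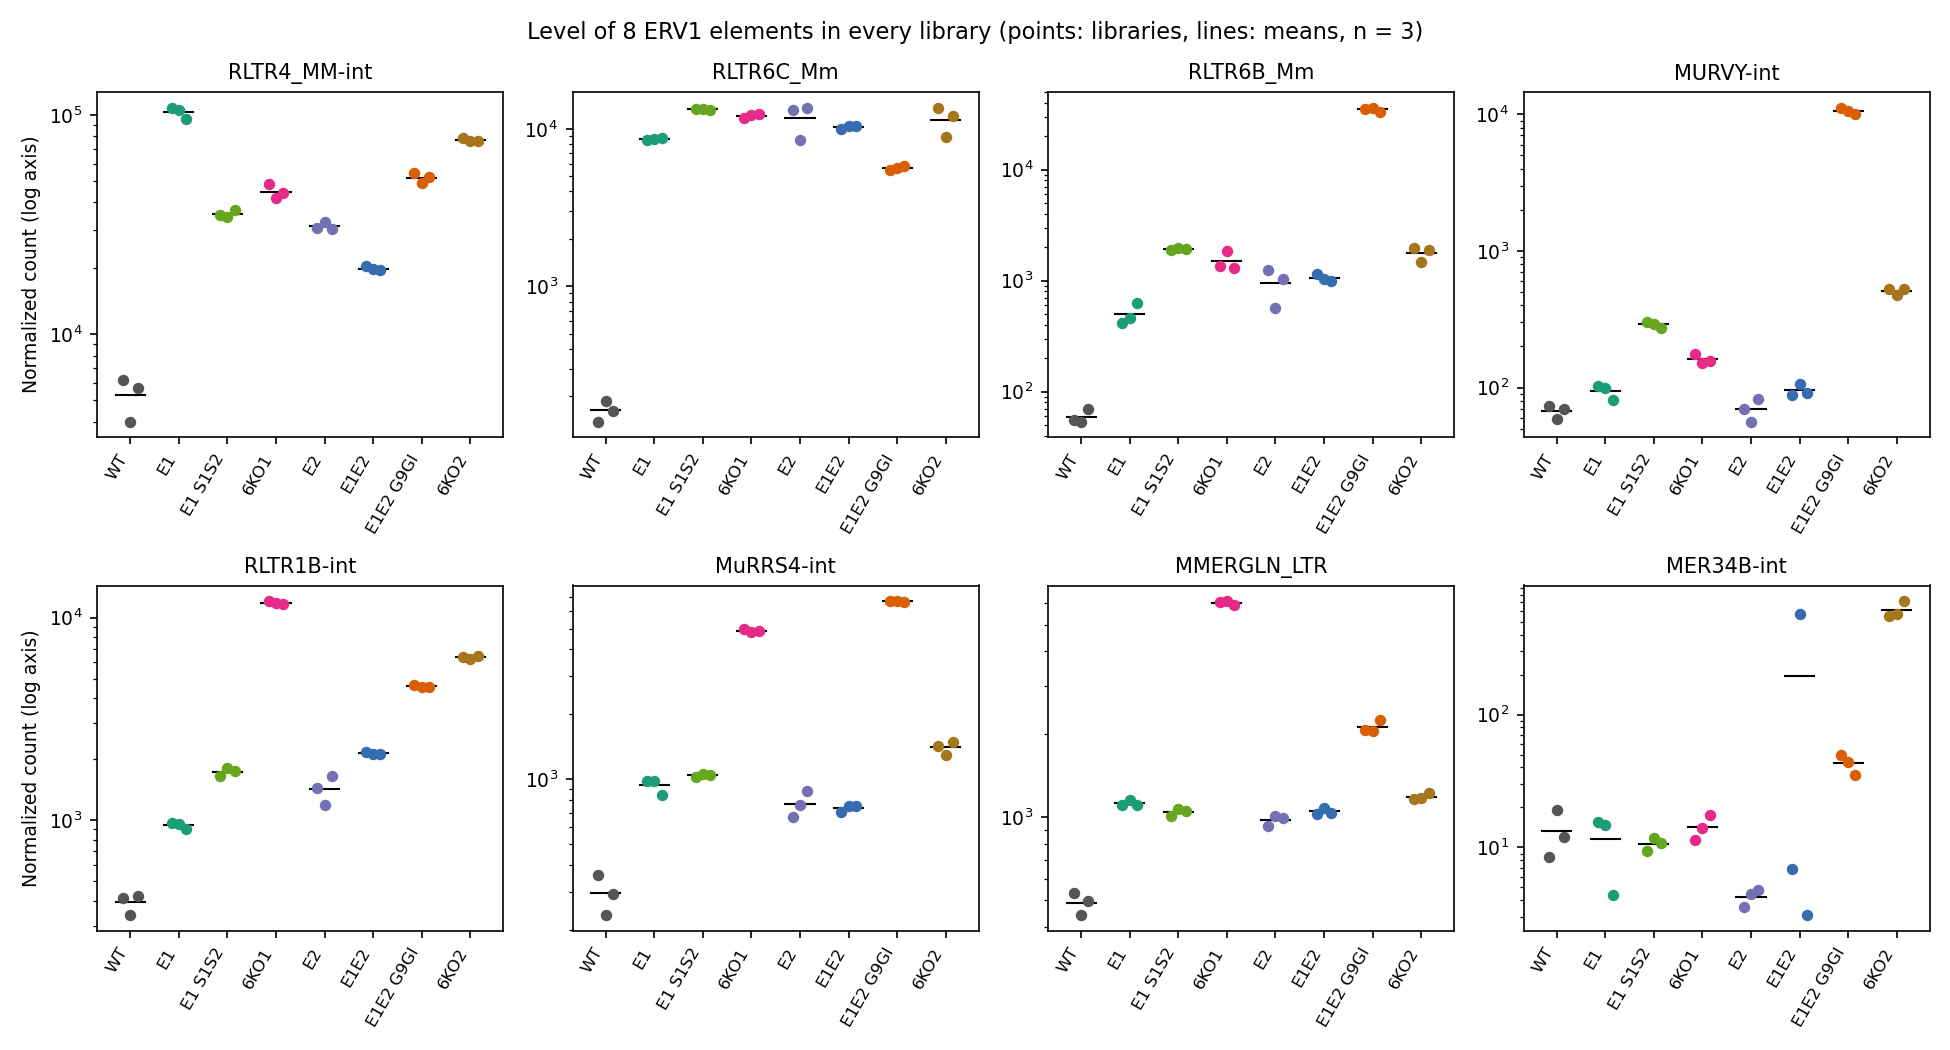
Normalized counts of 8 members (log axis) in each of the 24 libraries, grouped by condition, 1 point per library and a line at the mean (n = 3). RLTR4_MM-int is highest in *E1*, RLTR1B-int and MMERGLN_LTR in *6KO1*, RLTR6B_Mm, MURVY-int and MuRRS4-int in *E1E2 G9Gl*, RLTR6C_Mm is high in every mutant condition, and MER34B-int is high in *6KO2* and in 1 library of *E1E2*.

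The LTRs of the VL30 group, RLTR6_Mm, RLTR6B_Mm and RLTR6C_Mm, rose in all 7 conditions, and they had some of the largest differences. VL30 elements are retrotransposons of the mouse that can be packaged by leukaemia viruses and encode no complete set of viral proteins. RLTR6C_Mm had 139, 188 and 163 normalized counts in WT. It had 8458, 8610.3 and 8698 in *E1*, 13415, 13344 and 13148 in *E1 S1S2*, and 5449, 5603 and 5779 in *E1E2 G9Gl*, the lowest mutant condition. Its log2 differences lay between 5.10 ± 0.16 in *E1E2 G9Gl* (edgeR adjusted p 1.45e-30) and 6.35 ± 0.17 in *E1 S1S2* (edgeR adjusted p 6.41e-33). RLTR6_Mm had 399.6, 440.1 and 412 in WT and rose by 3.65 to 5.10 on the log2 scale, with the lowest value in *E1E2 G9Gl* and the highest in *E1 S1S2*. One library departed from its group here: *E2* replicate 2 had 8446 for RLTR6C_Mm, where the others had 13202 and 13608, and 6631 for RLTR6_Mm, where the others had 14743 and 15002.

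RLTR6B_Mm behaved otherwise in 1 condition. It had 55.4, 53.9 and 69.2 normalized counts in WT and 412, 466 and 630.4 in *E1*. In *E1E2 G9Gl* it had 35384, 36236 and 33267, the largest fold difference of a member that had counts in WT, with a log2 difference of 9.20 ± 0.24 (edgeR adjusted p 4.35e-34). In *6KO2*, which derives from that clone, it had 1959.98, 1463 and 1879, which overlapped the 1904, 1952 and 1925 of *E1 S1S2*. The other mutant conditions lay between 412 and 1849. So RLTR6C_Mm was lowest and RLTR6B_Mm highest of the mutant conditions in *E1E2 G9Gl*. Over the 24 libraries RLTR6C_Mm correlated with the left-out MMVL30-int at 0.997 and with RLTR6-int at 0.677, and RLTR6B_Mm with RLTR6-int at 0.991 and with MMVL30-int at 0.580 (Pearson, log2 levels).

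MURVY-int, the internal part of a repeat of the murine retrovirus kind that is named for its copies on the Y chromosome, had its highest level in *E1E2 G9Gl*. It had 73.5, 59.4 and 69.2 normalized counts in WT and 11172, 10641 and 10032 in *E1E2 G9Gl*. It had 523, 477 and 522 in *6KO2*, then 305, 293 and 274 in the libraries of *E1 S1S2*, and 176, 152 and 157 in *6KO1*, and none of these 5 conditions overlapped another. The log2 difference was 7.30 ± 0.13 in *E1E2 G9Gl* (edgeR adjusted p 3.93e-40), 2.92 ± 0.13 in *6KO2* (edgeR adjusted p 4.89e-25), 2.11 ± 0.13 in *E1 S1S2* (edgeR adjusted p 6.4e-19) and 1.27 ± 0.13 in *6KO1* (edgeR adjusted p 1.6e-11). In *E1*, *E2* and *E1E2* its level was between 56.5 and 106 and it was not called. MURVY-LTR was called in no condition by edgeR: it had 231, 157 and 216 in WT and 328, 339.9 and 354 in *E1E2 G9Gl*, with a log2 difference of 0.76 ± 0.13 (edgeR adjusted p 9.57e-07), and its largest difference was 0.93 in *6KO1*.

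The Y-linked genes Kdm5d, Uty, Ddx3y and Eif2s3y, listed after the values of MURVY-int were seen, summed to 0 normalized counts in all libraries of WT, *E1*, *E2*, *E1E2* and *E1E2 G9Gl*. No library of the other conditions had more than 2.21. The level of MURVY-int in *E1E2 G9Gl* was thus measured beside 0 counts of these 4 genes. The copies that gave the reads are not known from counts per element.

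**Figure D3:**
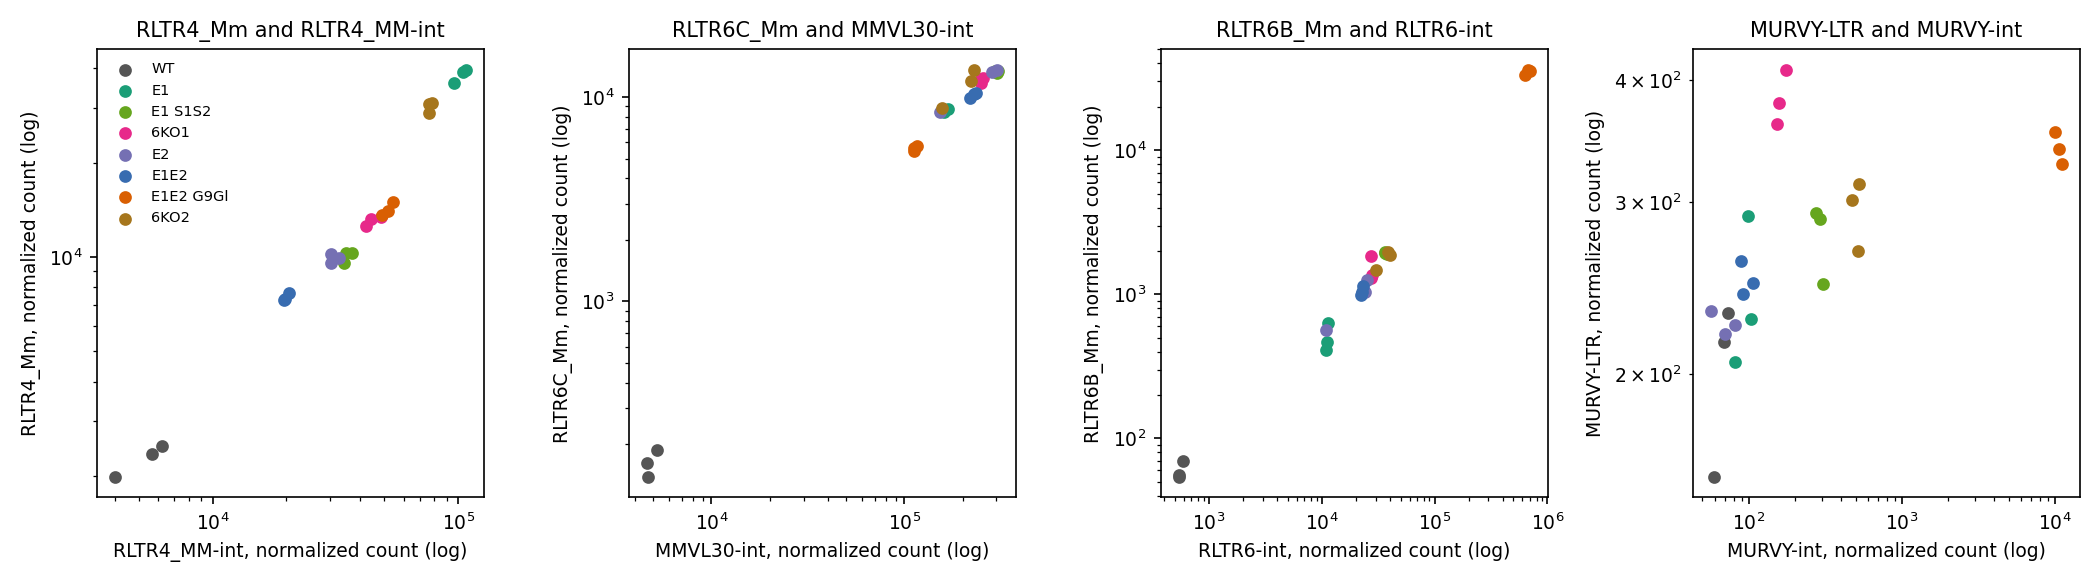
Normalized count of an LTR (vertical, log axis) against that of an internal element (horizontal, log axis) for 4 pairs, 1 point per library and coloured by condition. RLTR4_Mm follows RLTR4_MM-int, RLTR6C_Mm follows MMVL30-int and RLTR6B_Mm follows RLTR6-int over the 24 libraries (r 0.983, 0.997 and 0.991), and MURVY-LTR changes little where MURVY-int is highest.

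The remaining internal elements up in all conditions had their peaks in different lines. RLTR1B-int had 413, 339.7 and 423 normalized counts in WT and 12044, 11815 and 11707 in *6KO1*. It had 6405, 6276 and 6494 in *6KO2*, 4654, 4555 and 4523 in *E1E2 G9Gl* and 963, 958 and 901 in *E1*, with no overlap among these. Its log2 difference was 4.92 ± 0.13 in *6KO1* (edgeR adjusted p 4.02e-34) and 1.26 ± 0.11 in *E1* (edgeR adjusted p 6.31e-13). Its LTR, RLTR1B, named after its values were seen, went from 262, 172 and 275 in WT to 2628, 2629 and 2534 in *6KO1*, and was called in *6KO1*, *E1E2*, *E1E2 G9Gl* and *6KO2*. The correlation of RLTR1B with RLTR1B-int over the 24 libraries was 0.966.

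MuRRS4-int, the internal part of a repeat related to murine retroviruses, had 359, 235 and 293 normalized counts in WT, 4974, 4816 and 4869 in *6KO1*, and 6686, 6697 and 6673 in *E1E2 G9Gl*. It fell back to 1430.4, 1302 and 1490.1 in *6KO2* and had 987, 983 and 843 in *E1*. Its log2 differences were 4.50 ± 0.13 in *E1E2 G9Gl* (edgeR adjusted p 1.92e-32), 4.05 ± 0.13 in *6KO1* (edgeR adjusted p 7.37e-31) and 1.32 to 2.25 in the other conditions. MERV1_I-int was likewise highest in *E1E2 G9Gl*, with 2777, 2723 and 2662 against 430.5, 272 and 423 in WT, a log2 difference of 2.86 ± 0.12 (edgeR adjusted p 5.3e-26). In the other 6 conditions its log2 differences were 1.17 to 1.997. MERV1_LTR, named for its place among the 11, had 58.6, 48.4 and 77.3 in WT and 703, 666 and 679.7 in *6KO1*.

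MuRRS-int and RodERV21-int were called up in *6KO1*, *E1E2 G9Gl* and *6KO2*. In the other conditions their log2 differences were 0.20 to 0.95 and 0.39 to 0.78, short of the minimum. MuRRS-int, the internal part that goes with LTRIS repeats, had 521, 328 and 472 normalized counts in WT, 1125, 1078 and 1115 in *E1E2 G9Gl*. The *6KO1* libraries had 2074, 1789.6 and 1929, and those of *6KO2* 2742, 1883 and 2638. *6KO1* and *6KO2* overlapped each other and lay above *E1E2 G9Gl*. The log2 differences were 1.33 ± 0.12, 2.14 ± 0.12 and 2.46 ± 0.12, with edgeR adjusted p of 1.43e-13, 1.66e-20 and 1.49e-22. RodERV21-int had 180.1, 112 and 159 in WT, 1249, 1099.6 and 1247 in *E1E2 G9Gl*, while *6KO1* gave 958, 897 and 814 and *6KO2* gave 864, 765 and 843. RLTR14-int changed less. It had 641, 487 and 604 in WT and at most 1633 in a library (*6KO1*). It was called at 1.34 in *6KO1*, 1.02 in *E2*, 1.11 in *E1E2* and 1.06 in *6KO2*, with 0.93 in *E1*, 0.80 in *E1 S1S2* and 0.36 in *E1E2 G9Gl*.

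The LTRIS names, LTRs of the MuRRS group, moved by different amounts. LTRIS2 had 339, 222 and 309 normalized counts in WT, 1103, 1078 and 1058 in *6KO1* and 1466, 1309 and 1416 in *E1E2 G9Gl*, and was called up in these and in *6KO2* (log2 differences 1.90, 2.27 and 1.22). LTRIS5 had 29.8, 21.0 and 17.1 in WT, 194, 192 and 181 in *6KO1*, and 379, 429 and 392 in *E1E2 G9Gl*. LTRIS5 dropped to 46.5, 40.0 and 59.6 in *6KO2*, and was called up in these 3 and in *E1 S1S2*, with log2 differences of 3.07, 4.15, 1.11 and 1.46. LTRIS_Mus, LTRIS_Mm, LTRIS3 and LTRIS6 were called in *6KO1*, *E1E2 G9Gl* and *6KO2* and in no other condition, with log2 differences of 1.33 to 3.74. LTRIS4 was called in *E1E2 G9Gl* (1.86) and LTRIS4B in *E1* (1.03) and *6KO1* (1.41). LTRIS4A was called in no condition, and its largest difference was 0.85. Over the 24 libraries MuRRS-int correlated with LTRIS_Mus at 0.852 and with LTRIS2 at 0.737.

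MMERGLN_LTR and RLTR5_Mm rose in all conditions with opposite peaks. MMERGLN_LTR, the LTR of the GLN group of gammaretroviruses, had 531, 443 and 499.8 normalized counts in WT and 6029.7, 6085 and 5875 in *6KO1*, more than the 2079, 2057 and 2265 of *E1E2 G9Gl*. Its log2 differences were 3.61 ± 0.10 in *6KO1* (edgeR adjusted p 7.38e-33) and 1.001 to 2.12 in the others. RLTR5_Mm had 14.9, 10.04 and 18.1 in WT, 568, 554 and 562 in *E1E2 G9Gl* and 171, 172 and 139.8 in *6KO1*, with a log2 difference of 5.29 ± 0.18 in *E1E2 G9Gl* (edgeR adjusted p 6.14e-29). The correlation of MMERGLN_LTR with the left-out MMERGLN-int was 0.920.

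**Figure D4:**
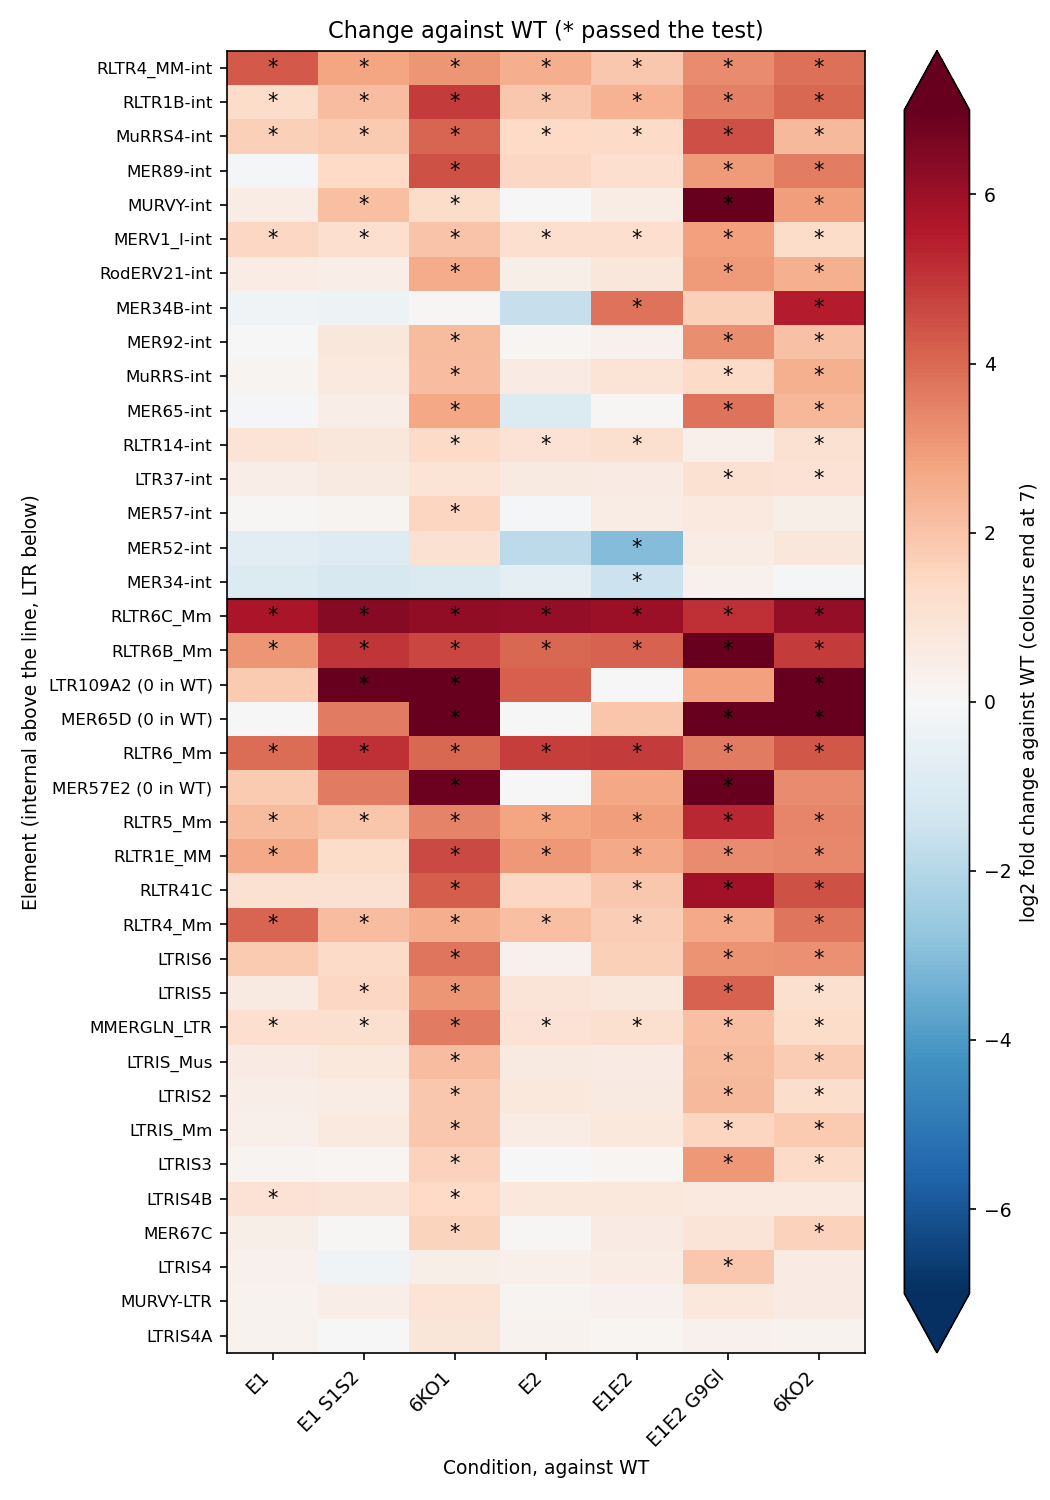
Log2 difference from WT of the 38 members picked by the naming rule (vertical) in the 7 mutant conditions (horizontal), in colour that ends at 7, with a star where called. For the elements marked as having 0 counts in WT the colour depends on the prior count of the fit. The RLTR4, RLTR6 and RLTR5 names are called in every condition, and the MER names mainly in *6KO1*, *E1E2 G9Gl* and *6KO2*.

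Among the elements with MER or numbered LTR names, the internal elements MER65-int, MER89-int and MER92-int rose in the lines that lack *G9a* and *Glp*. Rises were common among all repeats in those lines, so this need not be particular to such names. MER65-int had 21.3, 16.4 and 28.1 normalized counts in WT, 304, 281 and 348 in *E1E2 G9Gl*, where *6KO1* had 155, 127 and 148 and *6KO2* had 112, 109 and 114, with no overlap among them. The log2 differences were 3.82 ± 0.18, 2.71 ± 0.19 and 2.35 ± 0.20, with edgeR adjusted p of 1.96e-23, 4.08e-17 and 3.11e-14. MER92-int had 28.8, 19.2 and 18.1 in WT and 218, 228 and 188 in *E1E2 G9Gl* (log2 difference 3.27 ± 0.22, edgeR adjusted p 6.09e-18). MER89-int had 2.13, 0 and 3.01 in WT and 45.7, 34.8 and 37.2 in *6KO1* (log2 difference 4.47 ± 0.48, edgeR adjusted p 3.08e-11). MER57-int was called in *6KO1* alone (1.49), LTR37-int in *E1E2 G9Gl* (1.09) and *6KO2* (1.01), and the LTR MER67C in *6KO1* (1.56) and *6KO2* (1.61).

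Further LTRs with such names passed the test against WT, and they were named after their values were seen. MER67B was called up in *E1E2 G9Gl* (2.84), *6KO1* (1.67) and *6KO2* (1.37), and MER67D in the same conditions at 1.19, 1.27 and 1.04. MER90 was called at 1.31, 1.26 and 1.13 and MER90a at 1.95, 1.504 and 1.04 in that order. MER92C was called in *6KO1* (2.27) and *E1E2 G9Gl* (1.65), and LTR37A at 1.10 and 1.62 in these. The differences of the MER67 and MER90 names against WT were below 3 on the log2 scale, apart from MER67A with 3.45 in *E1E2 G9Gl*. LTRs called in a single condition included LTR37B (1.30) and LTR68 (1.05) in *6KO1*, and MER34A1 (1.64), MER57C2 (1.14), MER92B (1.38) and MER57E1 (1.003) in *E1E2 G9Gl*.

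Some LTRs had 0 counts in all WT libraries, so that only a lower bound of their fold difference can be given, against 3 counts over the WT group. MER65D had 331 counts in *E1E2 G9Gl*, 184 for *6KO1* and 118 for *6KO2*, at least 129.99-fold, 56.2-fold and 43.5-fold higher than WT. MER57E2 had 426 counts in *E1E2 G9Gl* and 47 in *6KO1*, at least 169-fold and 14.2-fold higher, and 3 counts in *6KO2*, at the floor. LTR109A2 had another profile, with 370 counts in *6KO1* (at least 113-fold higher), 69 in *E1 S1S2* (at least 20.04-fold) and 51 in *6KO2* (at least 18.7-fold), and 2 in *E1E2 G9Gl*. Each of these elements was thus near or at 0 in some mutant lines and had clearly more counts in others. RLTR1E_MM had 3 counts in WT and 92 in *6KO1*, a ratio of 28.1 (95% interval 9.31 to 139, counting error alone). RLTR41C had 4.26, 2.74 and 1.004 normalized counts in WT and 142, 183 and 161 in *E1E2 G9Gl*, a log2 difference of 5.87 ± 0.32 (edgeR adjusted p 3.37e-21).

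MER34B-int rests on 1 library in *E1E2*. It had 8.52, 19.2 and 12.0 normalized counts in WT and 6.90, 571 and 3.10 in *E1E2*, so replicate 2 alone carried the call of 3.80 ± 0.74 (edgeR adjusted p 7.98e-05). Without that library the log2 difference was -1.40. In *6KO2* all libraries were high, with 553, 576 and 714 (log2 difference 5.50 ± 0.69, edgeR adjusted p 2.43e-09), and *E1E2 G9Gl* had 49.6, 43.9 and 35.0. The members called down in *E1E2* were at low counts. MER34-int had 26.6, 8.22 and 20.1 in WT and 5.91, 6.64 and 6.202 in *E1E2* (log2 difference -1.51, edgeR adjusted p 0.00394). MER52-int had 20 counts in WT and 2 in *E1E2*, a ratio of 0.105 (95% interval 0.0119 to 0.432, counting error alone). With any 1 library of WT or *E1E2* left out, at most 1 of these calls was made.

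The step from one line to the next within a series asks which members change as further genes are mutated. From *E1* to *E1 S1S2*, 5 members were called up and 2 down, where 1.49% of all elements were up and 1.16% down. RLTR4_MM-int and RLTR4_Mm fell, by 1.54 and 1.92 on the log2 scale (edgeR adjusted p 1.93e-15 and 6.72e-20), and RLTR6B_Mm, MURVY-int and RLTR6_Mm rose, by 1.94, 1.62 and 1.18, with LTR109A2 and RLTR30C_MM, the latter named to complete the 5. From *E1 S1S2* to *6KO1*, 40 members were called up and 1 down (all elements 23.7% up, 0.497% down). RLTR41C (3.18), MER89-int (3.07), RLTR1B-int (2.77 ± 0.11, edgeR adjusted p 1.16e-25), MMERGLN_LTR (2.51 ± 0.09, edgeR adjusted p 5.13e-27) and MER65-int (2.26) rose, and RLTR6_Mm fell by 1.07 (edgeR adjusted p 1.84e-07).

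From *E2* to *E1E2*, 1 member was called up, the MER34B-int that rests on replicate 2, and 0 down by edgeR and DESeq2 (all elements 0.414% up, 0.414% down). At an unadjusted edgeR p under 0.05, 18 members were higher and 4 lower, and the share of all elements at that p is not given here. From *E1E2* to *E1E2 G9Gl*, 46 members were called up and 2 down (all elements 33.6% up, 0.994% down). MURVY-int rose by 6.80 ± 0.13 (edgeR adjusted p 8.33e-39), RLTR6B_Mm by 5.05 ± 0.19 (edgeR adjusted p 4.17e-27), RLTR41C by 3.99 and MER65-int by 3.76. RLTR6_Mm fell by 1.23 (edgeR adjusted p 5.66e-09), and MER34B-int was called down at -2.14 with overlapping libraries, a value that was 3.07 without *E1E2* replicate 2.

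The last step of the second series went the other way. From *E1E2 G9Gl* to *6KO2*, 28 members were called down and 5 up, where 16.7% of all elements were down and 1.82% up. MURVY-int fell by 4.39 on the log2 scale (edgeR adjusted p 1.84e-33), RLTR6B_Mm by 4.31 (edgeR adjusted p 1.57e-24), LTRIS5 by 3.03 and MuRRS4-int by 2.25. The rises were MER34B-int (3.83), MuRRS-int (1.13), RLTR4_Mm (1.09), RLTR6C_Mm (1.03) and LTR109A2. Scaled by the repeats, this step had 14 members down and 9 up, where 66 of all elements were down and 55 up. The median of all elements moved from -0.47 to 0.04 under that scaling. How far the members fell at this step therefore depends on the scaling. MURVY-int and RLTR6B_Mm were down under both scalings. Between the lines that lack all 6 genes, 10 members were higher in *6KO1* and 3 in *6KO2* (all elements 5.05% and 1.41%). MMERGLN_LTR was higher in *6KO1* by 2.33 (edgeR adjusted p 1.37e-24), LTRIS5 by 1.95 and MuRRS4-int by 1.795. MURVY-int, RLTR4_Mm and MER34B-int had log2 differences of -1.65, -1.21 and -5.42, higher in *6KO2*.

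**Figure D5:**
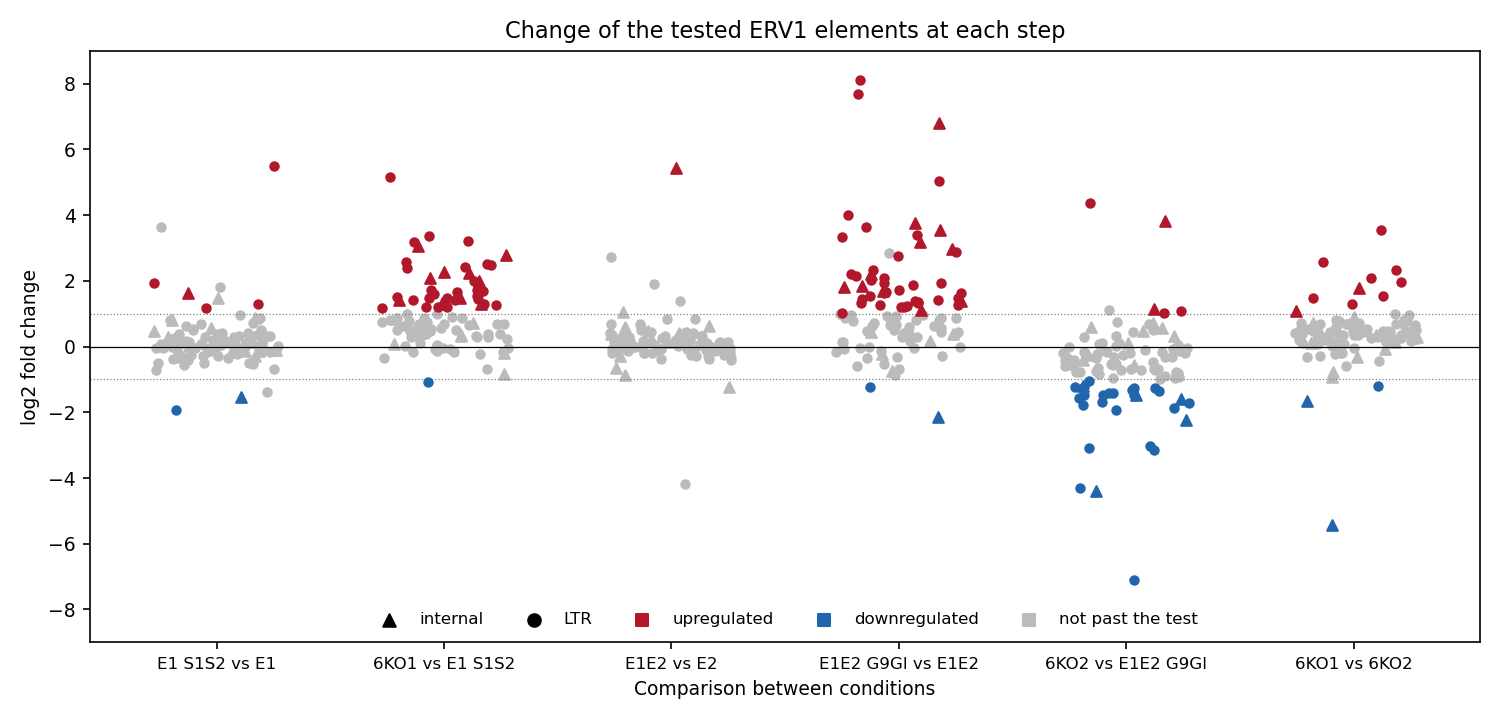
Log2 difference of each of the 101 tested members (triangles internal, circles LTR, red called up, blue called down) for 6 comparisons: the 5 steps within the series of lines and *6KO1* against *6KO2*. The points of *6KO1* against *E1 S1S2* and of *E1E2 G9Gl* against *E1E2* lie mostly above 0, those of *E1E2* against *E2* lie close to 0, and those of *6KO2* against *E1E2 G9Gl* lie mostly below 0. The positions of MER65D, MER57E2 and LTR109A2 depend on the prior count of the fit.

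Whether the effect of 4-OHT differed between the parent line and the *Eset2* mutant clone was tested as a difference of differences, (*E1E2* minus *E2*) minus (*E1* minus WT). It passed an adjusted p of 0.01 for 15 of 101 members, where 6.21% of all elements passed, and all 15 were smaller in the clone. The largest were RLTR6C_Mm at -5.91 ± 0.21 (edgeR adjusted p 2.31e-28), RLTR4_MM-int at -4.92 (edgeR adjusted p 7.16e-29) and RLTR4_Mm at -4.48 (edgeR adjusted p 7.16e-29). In the clone these members were already high without 4-OHT: RLTR6C_Mm had 8446 to 13608 in *E2* and 9928 to 10438 in *E1E2*. RLTR4_MM-int had 30327 to 32673 in *E2* and 19596 to 20488 in *E1E2*, so it was lower after 4-OHT in the clone and higher after 4-OHT in the parent line.

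The *Suv39h1* and *Suv39h2* step was compared in the same way, as (*E1 S1S2* minus *E1*) minus (*6KO2* minus *E1E2 G9Gl*). This difference of differences passed for 52 of 101 members, and 47 of them were more positive in the first pair. Of all elements 46.1% passed, so the share of members was near that of all elements. The largest were MER57E2, at 8.92 by a fit that depends on the prior count (edgeR adjusted p 3.46e-06), RLTR6B_Mm at 6.24 (edgeR adjusted p 1.62e-25) and MURVY-int at 6.002 (edgeR adjusted p 2.59e-32). RLTR4_Mm at -3.01 (edgeR adjusted p 3.45e-22), RLTR4_MM-int at -2.11 (edgeR adjusted p 2.10e-15) and MER67C at -1.08 (edgeR adjusted p 8.27e-05) went the other way. RLTR4_Mm fell in the first series (-1.92) and rose in the second (1.09), and MURVY-int rose in the first (1.62) and fell in the second (-4.39).

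Some of the genes known to silence gammaretroviruses passed the test. In *E1*, *E1 S1S2*, *E2* and *E1E2* their share was near that of all genes, and in the other conditions it was lower. Of 20 listed, 19 were tested, and *E1* had 1 called up, *E1E2 G9Gl* had 3 up, *6KO1* had 2 up with 1 down, and the other 4 conditions had 2 up each. Of all 18565 genes tested, 4.26% were called in either direction in *E1*, 25.2% in *E1E2 G9Gl*, 30.9% in *6KO1*, 11.8% in *E1 S1S2*, 6.11% in *E2*, 8.73% in *E1E2* and 20.7% in *6KO2*. Atf7ip, the partner that stabilises ESET1, rose in all 7 by 1.57 to 2.11 on the log2 scale. Zfp809 rose in *E1 S1S2* (1.30), *E2* (1.53), *E1E2* (1.48), *E1E2 G9Gl* (2.25) and *6KO2* (1.08), and had 345 normalized counts on average in WT and 1644 in *E1E2 G9Gl*. Morc3, a chromatin ATPase, rose in *6KO1* (1.19) and *E1E2 G9Gl* (1.36), and Pphln1, of the HUSH complex, fell by 1.04 in *6KO1*. Of the 4 tested restriction genes Apobec3 was called, at -1.58 in *E1 S1S2*, 1.15 in *6KO1*, 1.11 in *E2* and 1.44 in *E1E2*, and of the 4 virus receptor genes Slc20a1, at -1.002 in *E1E2 G9Gl*.

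Markers of cell types also moved, and their part in the results above was not tested. The 8 fibroblast markers summed to 176735 to 226678 normalized counts in WT, to 98102 to 110899 in *6KO1* with 4 of 8 down, and to 227384 to 246006 in *E1E2 G9Gl* with 2 of 8 up. Fibroblast markers were also called down in *E1 S1S2* (3 of 8), in *6KO2* and *E1E2* (2 of 8 each), and in *E2* and *E1* (1 of 8 each). Thy1 had a mean of 199 normalized counts in WT, 0.293 in *6KO1* (log2 difference -8.87), 0.861 in *E1 S1S2* (-7.66), 1.76 in *6KO2* (-6.68), 49.3 in *E1E2* and 27.0 in *E2*, and it was called down in these 5 conditions and up in *E1E2 G9Gl* (412). The 4 epithelial markers summed to 30.9 to 50.2 in WT and 421 to 446 in *6KO1*, and of the 2 tested, Krt8 was called up in all 7 conditions and Epcam down in 5. Of the 3 blood markers, Ptprc and Itgam were at 0 in WT and rose in *6KO1*, *E1E2 G9Gl* and *6KO2*, with Itgam at a mean of 507 in *E1E2 G9Gl*. The third, Cd34, went the other way in *6KO1*: it had a mean of 11190 in WT and was called down in *6KO1* (4425) and *E1 S1S2* (3235), so that the summed blood markers fell from a mean of 11190 in WT to 4503 in *6KO1*. The 3 endothelial markers summed to 11.0 to 14.9 in WT, and reached 66.1 to 79.8 in *E1E2 G9Gl*, with 94.9 to 109.9 for *6KO1* and 96.2 to 129 for *6KO2*. Itgam was also called up in *E1*, at a mean of 3.46. The 4 pluripotency markers summed to between 6.39 and 29.0 in all libraries, and Zfp42 was at 0. Of the 2 tested, Dppa5a, at 0 in WT, was called up in *6KO1* (mean 12.2), *E1 S1S2* (8.54), *E1* (7.96), *E1E2 G9Gl* (6.53) and *6KO2* (4.10), and Pou5f1 was called in no condition.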

How the data were processed

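RNA-seq of 24 MEF cultures, 3 in each of 8 conditions, was re-analysed. Groups and replicate numbers came from the sample labels. The authors trimmed paired, stranded reads with cutadapt 1.8.1, aligned them to GRCm38 with STAR 2.5.2b and used TEtranscripts to count them per gene and per repeat element, where a read with many matches is divided among copies. They deposited whole-number counts without normalization. Reads shared between related elements can move counts from one name to another.

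Of 47937 genes and 1445 repeat elements, 18565 and 1207 passed filterByExpr, and 1 malformed entry (at most 0.0027% of counts) was left out. No column was without a sample (0). Sizes were gene totals with TMM factors, since the paper scaled repeats by genes. The model had 1 term per condition and all libraries, and two-sided quasi-likelihood tests were made in R 4.3.3 with edgeR 4.0.16 and limma 3.58.1. Exact permutation tests are not given, since 3 libraries a group allow no p under 0.1. Levels that are 0 in WT were bounded with 3 counts, and intervals at 95% are exact binomial intervals on counts.

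Steps were tested on simulated data for *6KO1* against WT: of 200 changed among 1207 elements, edgeR called 194 (97%) with 0 others, and DESeq2 191 with 0 others. In the simulation all elements had the same dispersion, every change exceeded the fold minimum and no library stood apart. It therefore checks that the steps run as meant and does not give the error rates of the calls in the real libraries. The alternatives were DESeq2 1.42.0, RLE factors, gene totals without TMM, repeat factors, filters on low counts, no fold minimum, only the libraries compared, a replicate block and each library left out. Figures were drawn with matplotlib 3.10.9.

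Members and lists were chosen with earlier results of these data known. The text names internal members called against WT, the 5 largest LTR rises in *E1*, *E1E2 G9Gl*, *6KO1* and *6KO2*, up to 3 falls against WT and up to 3 changes per direction of each step, and the RLTR4, RLTR6, MuRRS, LTRIS and MURVY names. Other names were chosen after their values were seen. Sequences and positions of the elements were not analysed here.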

Additional observations from a re-analysis of the deposited data

Results flagged for a closer look

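The effect of 4-OHT was compared between the clone that carries the *Eset2* mutation and the parent line, by edgeR's test of the difference of differences. Of the members that passed, counted above, the 3 with the largest differences are flagged here. The differences were -5.91 for RLTR6C_Mm, -4.92 for RLTR4_MM-int and -4.48 for RLTR4_Mm on the log2 scale, each smaller in the clone. *Setdb1* RNA was at 0.807 times WT in *E2* and 0.809 times WT in *E1E2*, against 0.674 in *E1*, 0.438 in *E1E2 G9Gl* and 0.517 in *6KO2*. This RNA was counted over the whole gene and cannot show whether the floxed exons were removed in the *E1E2* libraries. The paper checked deletion in its lines by western blot for ESET1 or by RT-qPCR of those exons. What part the extent of deletion has in these differences was not tested. The step to *Suv39h1* and *Suv39h2* mutation was compared between the series by the same kind of test, which 46.1% of all elements passed. Of the members that passed, counted above, the 3 with the largest differences in each direction are flagged, 6 in all. The differences were 8.92 for MER57E2, 6.24 for RLTR6B_Mm and 6.002 for MURVY-int, more positive from *E1* to *E1 S1S2*. For RLTR4_Mm, RLTR4_MM-int and MER67C they were -3.01, -2.11 and -1.08. Each line is 1 clone, so a difference between series cannot be told apart from one between clones.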

How the results depend on the processing

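Counts of members called up and down against WT kept their size under RLE factors, and without the filter on low counts all counts stayed within 1.5 times. With DESeq2, 1 member was down in *E1E2* and 1 from *E1E2* to *E1E2 G9Gl*. Scaled by repeats, the rises were 38 in *6KO1*, 40 in *E1E2 G9Gl*, 25 from *E1E2* to *E1E2 G9Gl*, 9 from *E1E2 G9Gl* to *6KO2* and 0 from *E2* to *E1E2*, and the falls 3 in *6KO1*, 1 in *E1 S1S2*, 1 in *E2*, 1 in *E1E2 G9Gl*, 3 from *E1 S1S2* to *6KO1*, 7 from *E1E2* to *E1E2 G9Gl*, 14 from *E1E2 G9Gl* to *6KO2* and 5 in *6KO1* against *6KO2*. Of all elements scaled by repeats, 220 rose and 79 fell from *E1E2* to *E1E2 G9Gl*, and 55 rose and 66 fell from there to *6KO2*. The counts of all elements for *6KO1* and *E1E2 G9Gl* against WT are given with the medians. With gene totals alone, 0 members fell from *E1 S1S2* to *6KO1*. Without a fold minimum the rises were 33 in *E1 S1S2*, 24 in *E2*, 32 in *E1E2*, 10 from *E1* to *E1 S1S2*, 67 from *E1 S1S2* to *6KO1*, 3 from *E2* to *E1E2*, 10 from *E1E2 G9Gl* to *6KO2* and 36 in *6KO1* against *6KO2*, and the falls 2, 2, 4 and 51 from *E1 S1S2* to *6KO1*, *E2* to *E1E2*, *E1E2* to *E1E2 G9Gl* and *E1E2 G9Gl* to *6KO2*. Above a mean of 100, where fewer members are tested, the rises were 35 in *6KO1*, 39 in *E1E2 G9Gl*, 28 in *6KO2*, 3 from *E1* to *E1 S1S2*, 21 from *E1 S1S2* to *6KO1*, 27 from *E1E2* to *E1E2 G9Gl* and 5 in *6KO1* against *6KO2*, and the falls 0 in *E1E2* and 15 from *E1E2 G9Gl* to *6KO2*. With the compared libraries alone, 0 rose from *E2* to *E1E2*, 0 fell in *E1E2* and 1 fell from *E1E2* to *E1E2 G9Gl*.

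Replicate numbers do not pair the samples (same-number correlations -0.31 to 0.25, and 0 comparisons with all 3 pairs over 0.1). With a replicate block, 57 members rose in *6KO1* and 1 fell from *E1E2* to *E1E2 G9Gl*, where MER34B-int was at -1.62.

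The internal sum scaled by repeats was 12.99, 9.39, 5.78, 5.72, 4.62, 4.33 and 3.10 times WT in *E1*, *6KO2*, *E1E2 G9Gl*, *6KO1*, *E1 S1S2*, *E2* and *E1E2*, and the LTR sum 4.44, 4.05, 3.74, 3.04, 3.31 and 2.93 in these without *E2*. With gene totals alone the internal sum was 9.80 in *6KO1* and 5.62 in *E1 S1S2*, and the LTR sum 5.25, 4.06, 6.90 and 3.26 in *6KO1*, *E1 S1S2*, *E1E2 G9Gl* and *E1E2*. With RLE factors the LTR sum was 3.86 in *E1 S1S2* and 6.84 in *E1E2 G9Gl*.

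Small differences changed sign. LTRIS3 in *E2* was 0.0036 by DESeq2, 0.0044 by RLE and 0.014 by gene totals, and LTRIS4A in *E1 S1S2* 0.0028, 0.0040 and 0.077. Scaled by repeats, LTRIS3 was -0.071 in *E1 S1S2*, LTRIS4 -0.21 in *6KO1*, LTRIS4A -0.088 in *6KO2* and -0.52 in *E1E2 G9Gl*, LTRIS4B -0.16 and MURVY-LTR -0.076 in *E1E2 G9Gl*, and MURVY-int -0.10 in *E2*.

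With each library left out, falls were 0 to 1 in *E1*, *E1 S1S2*, *6KO1* and *E2* (1 without WT replicate 2), 0 to 1 in *E1E2* and 1 to 2 from *E1E2* to *E1E2 G9Gl*, and 0 to 2 rose from *E2* to *E1E2*. MER34B-int spanned -1.40 to 4.39 in *E1E2* and -2.72 to 3.07 from *E1E2* to *E1E2 G9Gl*, the first and the last of these without *E1E2* replicate 2. LTRIS3 in *E2* spanned -0.18 to 0.082, LTRIS6 in *E2* -0.35 to 1.43, LTRIS4A -0.21 to 0.19 in *E1 S1S2* and -0.040 to 0.35 in *E1E2*, and MURVY-int in *E2* -0.10 to 0.18. The internal sum spanned 12.4 to 15.1, 10.5 to 12.8, 9.21 to 11.2, 7.81 to 9.48, 4.75 to 5.77, 4.19 to 5.09 and 3.04 to 3.70 times WT in the order above, lowest without WT replicate 2, and the LTR sum 4.39 to 5.03, 3.53 to 4.04, 4.29 to 4.92, 2.99 to 3.42 and 6.17 to 7.07 in *E1*, *E1 S1S2*, *6KO1*, *E1E2* and *E1E2 G9Gl*. The cause of these changes was not tested. Elements with few counts, such as MER52-int and MER89-int, are limited by depth.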

Other observations

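The members called up in no condition were 4 internal elements and 25 LTRs, and 19 of these 29 had MER or numbered LTR names. MER34-int and MER52-int, which were called down in *E1E2*, are among the internal elements. MER67A, an LTR named after its values were seen, fell by 3.14 on the log2 scale from *E1E2 G9Gl* to *6KO2*. Over the 24 libraries RLTR14 and RLTR14-int, which share a name, had a correlation of 0.147, and MERV1_LTR and MERV1_I-int had 0.839.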
